A study of Mus musculus with 15 samples.

Results

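A group of 98 genes rose at the start of embryonic transcription in wild-type (WT) mouse embryos and stood still higher in 2-cell embryos whose mothers had lost Usp16. They were selected on measured values, as genes with a mean level more than 3-fold higher in WT 2-cell embryos than in WT zygotes and again more than 3-fold higher in the maternal knockout (cKO) 2-cell embryos than in WT 2-cell embryos. Of the 14392 genes listed, 134 passed both thresholds, and 36 of them were set aside by their symbols (32 starting with Rpl or Rps and 4 starting with Mrpl, Mrps, Nduf or Zfp). The direction and size of both differences were therefore fixed by the choice, and they are described below with no test.

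USP16 is a deubiquitinase that removes ubiquitin from lysine-119 of histone H2A. WT embryos came from Usp16+/+ females and cKO embryos from Usp16 fl/fl;Gdf9-Cre females, in which the Gdf9 promoter drives Cre in oocytes, so that the gene is deleted in the oocyte while the sperm of the WT male brings a normal allele (labelled Usp16 maternal -/ paternal +). The mice were of a C57BL/6 background, and all females of both genotypes were superovulated and mated with WT males. RNA-seq was made by Smart-seq2 from 10 pooled embryos per library, with 2 libraries for each genotype at the zygote and at the 2-cell stage. Levels are given as FPKM, the fragments of a gene per length of transcript and per mapped total, and the authors had raised all values below 1 to 1 (the floor). No source used here says whether the 2 libraries of a group came from separate females, so p-values measure only the spread between these libraries, which may be technical.

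After fertilization the mouse embryo first lives on RNA and protein stored in the egg. Its own genome becomes active in a minor wave in the zygote and a major wave in the 2-cell embryo, a transition called zygotic genome activation (ZGA), in which stored transcripts are cleared while new ones for ribosomes, mitochondria, RNA processing and protein turnover accumulate together with genes particular to the 2-cell stage. H2A ubiquitinated at lysine-119 is the mark laid down by Polycomb repressive complex 1 and is commonly associated with repressed promoters.

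Promoter sequence is shown for the first members by ratio (Bhmt, Cdk4) and by level in cKO embryos (Ppia, Tomm5) that have a single listed start overlapping no other gene, and for Ankmy2, which was added after its values were seen because it lies head to head with another member, Bzw2. Each is the run of 250 bases before the start of the gene, from RefSeq on GRCm38.p6, in which capitals mark a match to any of 10 motifs searched on both strands: the TATA box as TATAAA, the CCAAT box by its name, the GC box as GGGCGG, the ETS motif as CCGGAAG, the NRF1 motif as GCGCANGCG, the YY1 motif as AAGATGGCG, the E-box as CACGTG, the CRE as TGACGTCA, the nuclear receptor element as AAGGTCA and the bicoid-type homeobox motif as TAATCC.
Bhmt, chr13:93637759-93638008, minus strand: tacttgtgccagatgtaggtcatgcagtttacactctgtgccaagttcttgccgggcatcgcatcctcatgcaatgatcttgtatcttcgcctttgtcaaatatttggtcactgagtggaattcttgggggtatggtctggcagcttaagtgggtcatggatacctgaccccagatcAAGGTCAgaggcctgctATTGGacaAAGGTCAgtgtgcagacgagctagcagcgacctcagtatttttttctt
Cdk4, chr10:127063285-127063534, plus strand: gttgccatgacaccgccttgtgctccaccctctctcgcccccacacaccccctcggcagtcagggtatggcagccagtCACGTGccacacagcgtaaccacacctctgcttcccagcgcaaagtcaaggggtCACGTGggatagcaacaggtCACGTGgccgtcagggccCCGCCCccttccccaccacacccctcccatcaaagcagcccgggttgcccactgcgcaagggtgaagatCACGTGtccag
Ankmy2, chr12:36156874-36157123, plus strand: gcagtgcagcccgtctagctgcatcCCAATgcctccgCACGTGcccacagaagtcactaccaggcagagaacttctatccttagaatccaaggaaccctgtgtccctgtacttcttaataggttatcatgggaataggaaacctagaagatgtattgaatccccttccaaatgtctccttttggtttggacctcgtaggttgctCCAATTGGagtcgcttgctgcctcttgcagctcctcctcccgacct
Ppia, chr11:6415617-6415866, plus strand: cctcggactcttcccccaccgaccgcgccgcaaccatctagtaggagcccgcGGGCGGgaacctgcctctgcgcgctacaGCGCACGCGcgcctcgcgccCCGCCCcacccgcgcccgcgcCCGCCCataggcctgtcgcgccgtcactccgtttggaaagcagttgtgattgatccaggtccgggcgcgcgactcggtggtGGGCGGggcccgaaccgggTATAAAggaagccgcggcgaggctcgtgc
Tomm5, chr4:45108114-45108363, minus strand: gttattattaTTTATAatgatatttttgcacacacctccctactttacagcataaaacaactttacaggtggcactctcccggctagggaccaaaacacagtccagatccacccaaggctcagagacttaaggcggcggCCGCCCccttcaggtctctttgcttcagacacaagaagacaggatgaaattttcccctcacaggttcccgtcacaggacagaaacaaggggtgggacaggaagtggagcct
The 5 windows differed in composition. That of Ppia was 72.4% G and C and held 38 CpG, with 4 GC boxes, a TATA box at 29 bases before the start and 1 NRF1 match. That of Cdk4 held 4 E-boxes, which lie 172, 118, 98 and 11 bases before the start, and that of Bhmt held 2 nuclear receptor elements and only 5 CpG.

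Facts of the libraries bear on every level that follows. Usp16 stood at 184 and 187 FPKM in WT zygotes and at 16.8 and 21.99 FPKM in cKO zygotes, and at the 2-cell stage it was 168 and 183 FPKM in WT and 168 and 84.8 FPKM in cKO embryos. The sum of FPKM lay between 547752 and 593317 in 7 of the 8 libraries and was 770989 in cKO 2-cell replicate 2. Genes at the floor numbered 1642 and 1716 in the WT 2-cell libraries but 3684 and 4240 in the cKO 2-cell libraries. FPKM carries no counts, so depth is unknown, and in whole embryos a transcript present in fewer cells and one present at a lower level per cell cannot be told apart. Over the 9086 genes above the floor in every 2-cell library, cKO embryos stood lower than WT by a median log2 difference of -0.31, opposite in sign to the 98 genes. Markers fixed for cumulus cells, sperm, oviduct, blood and the blastocyst lineages included none of the 98 genes. Their summed FPKM at the 2-cell stage ran from 22.98 to 36.1 in WT and from 29.5 to 50.7 in cKO for 6 cumulus and granulosa markers, from 50.9 to 64.9 and from 28.5 to 31.4 for 8 sperm markers, and from 51.6 to 89.2 and from 81.4 to 119 for 5 oviduct markers. For 5 blood markers the sums were 27.6 to 28.3 and 11 to 17.2, and for 12 markers of trophectoderm and inner cell mass 189 to 248 and 157 to 308. Single genes carried some of these sums. Nr5a2 had 15.8 and 20.7 FPKM in WT and 45.6 and 23.9 FPKM in cKO, and Epcam 44.4 and 82.4 FPKM and 75.2 and 114 FPKM. Nanog had 234 FPKM in cKO replicate 2. At the floor in both libraries were 1 cumulus and 1 oviduct marker in WT, and 3 and 2 in cKO. The sums are thus no measure of cumulus or oviduct cells. The part of these markers in the levels of the 98 genes was not tested.

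At the median, the 98 genes were low in zygotes of both genotypes and higher in 2-cell embryos, although single members ranged widely, with WT zygote means from 1 to 119 FPKM and cKO 2-cell means from 9.59 to 4546 FPKM. Their median level was 2.28 and 1.83 FPKM in the WT zygote libraries, 2.97 and 2.35 FPKM in the cKO zygote libraries, 26.8 and 21.6 FPKM in the WT 2-cell libraries, and 88.5 and 112 FPKM in the cKO 2-cell libraries. The 2-cell medians of the 2 genotypes did not overlap, as the choice requires. Over the 98 genes the rise in WT had a median of 6.71-fold (range 3.005 to 446), and the ratio of cKO to WT 2-cell embryos had a median of 3.60 (range 3.002 to 9.98). Both WT zygote libraries were at the floor for 35 of the genes, whose rise is then a lower bound. The members were 2.66% and 2.13% of the summed FPKM of the WT 2-cell libraries and 5.71% and 8.52% of that of the cKO 2-cell libraries.

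**Figure D1:**
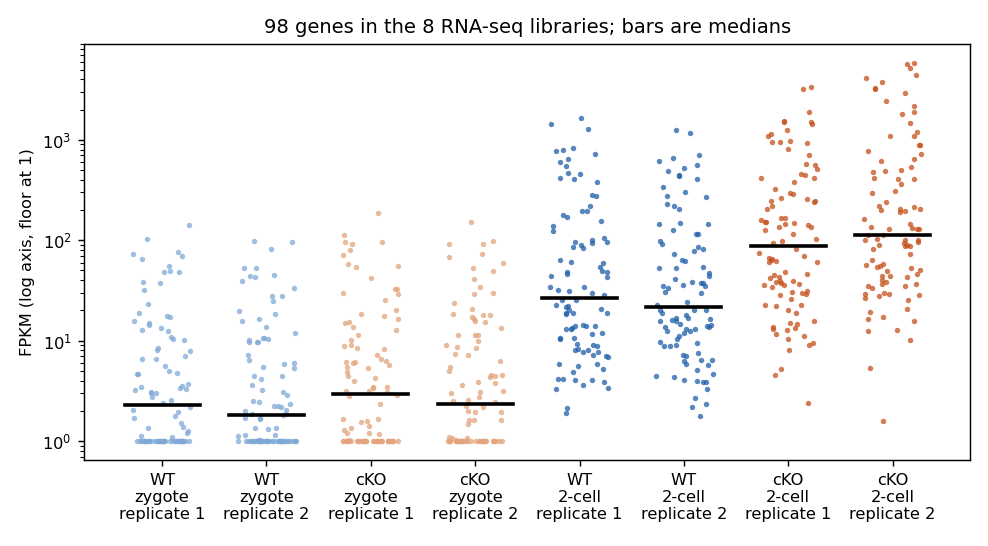
FPKM on a log axis for each of the 98 genes (points, spread sideways for sight only) in the 8 libraries, with the median as a bar. The cKO 2-cell medians of 88.5 and 112 FPKM lie above the WT 2-cell medians of 26.8 and 21.6 FPKM, and many points sit on the floor of 1 in zygotes.

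Genes more than 3-fold higher in cKO 2-cell embryos were few, both among rising genes and among all genes. Over the whole table, 26.0% of genes rose more than 3-fold from WT zygotes to WT 2-cell embryos. Between cKO and WT 2-cell embryos, 2.84% of all genes were more than 3-fold higher in cKO and 13.5% more than 3-fold lower. The 98 members were 0.681% of all genes. Of the 3553 rising genes with allowed symbols, 98 (2.76%) were more than 3-fold higher in cKO embryos, 591 (16.6%) were more than 3-fold lower and 2864 lay within 3-fold. The share of 2.84% over all genes keeps every symbol, and with every symbol kept 134 of 3739 rising genes were more than 3-fold higher. The median ratio of cKO to WT was 0.779 over these rising genes. The members had a median WT 2-cell level of 22.9 FPKM, against 14.2 FPKM over all rising genes and 7.30 FPKM over all genes. Of the members, 27 had a WT 2-cell mean above 100 FPKM, 47 lay from 10 to 100 FPKM and 24 lay under 10 FPKM.

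**Figure D2:**
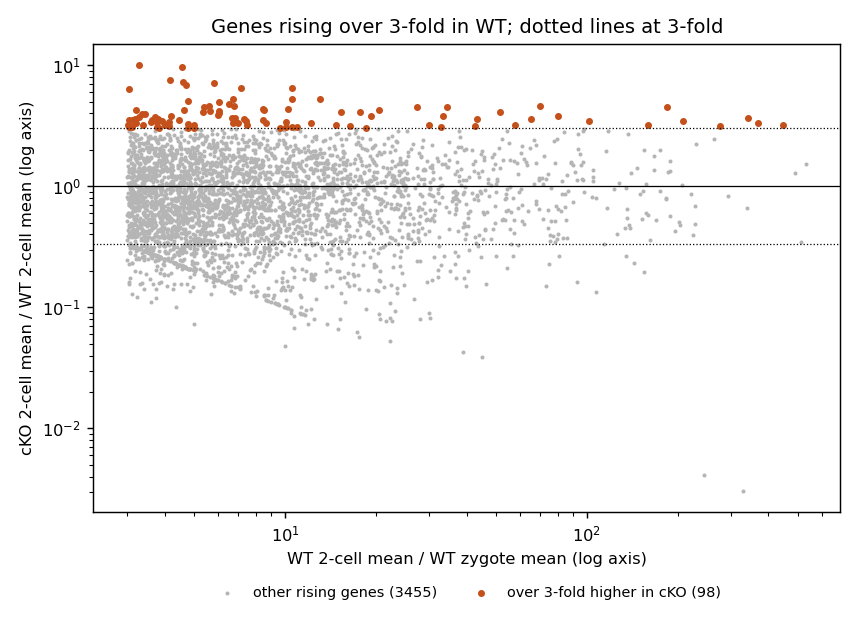
Rise in WT (WT 2-cell mean over WT zygote mean) against the ratio of cKO to WT 2-cell means, both on log axes, for the 3553 rising genes; the 98 chosen genes are in orange and dotted lines mark 3-fold. The chosen genes reach from 3.005-fold to 446-fold in rise, while few go beyond 5-fold in overshoot.

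Near the thresholds the choice was narrow. Ctu1, which thiolates the wobble base of some tRNAs, rose at least 3.005-fold in WT and Rabggta, a subunit of the enzyme that prenylates Rab proteins, 3.03-fold, whereas Timp1 and Etd, which rose at least 2.95-fold from the floor, were not included. For the ratio of cKO to WT, Gm773 at 3.002 and BC024659 at 3.01 were included, and Tomm22, a receptor of the mitochondrial outer membrane, at 2.996 and Slmap at 2.98 were not.

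The member with the largest ratio was Bhmt (betaine-homocysteine methyltransferase, which remakes methionine from homocysteine), on chromosome 13 from 94386846 to 94407916 on mm9. It was at the floor in all 4 zygote libraries, at 2.15 and 4.42 FPKM in WT and at 37.5 and 28.05 FPKM in cKO 2-cell embryos. Its cKO to WT ratio was thus 9.98, from 3.29 ± 1.60 to 32.8 ± 6.70 FPKM (SD, n = 2 libraries each), and 15.2 without WT replicate 2.
Znrd1, the small zinc-ribbon subunit of RNA polymerase I, had 89.8 and 37.2 FPKM in WT and 324 and 892 FPKM in cKO 2-cell embryos, a ratio of 9.58 between means of 63.5 ± 37.2 and 608 ± 402 (n = 2). Its start lies beside an antisense gene, and since the files do not say whether strand was used in counting, its reads and those of the antisense transcript cannot be told apart. Cdk4, the cyclin D-dependent kinase of the G1 phase, had 13.2 and 7.55 FPKM in WT and 67.2 and 88.1 FPKM in cKO embryos, a ratio of 7.49 (10.4 ± 3.99 to 77.6 ± 14.8, n = 2). In Cdk4 the cKO libraries lay close together, whereas in Znrd1 replicate 2 was far above replicate 1. The ratio of Znrd1 was 5.10 without cKO replicate 2 and 16.4 without WT replicate 1.
Mcts1, which acts with DENR in translation re-initiation, went from 14.5 and 20.1 FPKM in WT to 61.4 and 190.4 FPKM in cKO 2-cell embryos. Nt5c3l, a cytosolic nucleotidase, went from 5.91 and 5.70 to 29.4 and 52.7 FPKM. 2900093L17Rik, a processed transcript listed by RefSeq as Frmpd1os, went from 7.62 and 1.76 to 10.3 and 54.6 FPKM. In these 3 genes as well both cKO libraries lay above both WT libraries, with ratios of 7.28, 7.08 and 6.92, but for 2900093L17Rik the gap between 7.62 and 10.3 FPKM was small. With 1 library left out in turn, the ratio of 2900093L17Rik ran from 2.204 without cKO replicate 2 to 18.4 without WT replicate 1, and was 4.26 without WT replicate 2 and 11.6 without cKO replicate 1. That of Mcts1 was 3.55 without cKO replicate 2 and 11.01 without cKO replicate 1.
Pip5k1b, a kinase that makes phosphatidylinositol 4,5-bisphosphate, had 3.90 and 2.18 FPKM in WT and 22.9 and 15.8 FPKM in cKO 2-cell embryos. Jmy, an actin nucleator and p53 cofactor, had 4.87 and 4.64 FPKM in WT and 30.9 and 17.1 FPKM in cKO embryos. Tsga8, a testis-expressed gene, had 12.97 and 13.1 FPKM in WT and 35.95 and 100.03 FPKM in cKO embryos. All 3 were at the floor in every zygote library, and cKO replicate 1 was the higher of the cKO libraries in Pip5k1b and Jmy but the lower in Tsga8, whose ratio of 5.22 was 2.76 without cKO replicate 2.
Ocm (oncomodulin, a calcium-binding protein of the parvalbumin family) was detected in zygotes, at 2.56 and 1.66 FPKM in WT and 3.93 and 2.59 FPKM in cKO. It had 30.98 and 13.6 FPKM in WT and 102 and 129.97 FPKM in cKO 2-cell embryos, a ratio of 5.21, or 8.55 without WT replicate 1.
Ankmy2, an ankyrin-repeat and MYND-domain protein, and Bzw2, a translation regulator related to eIF5, lie head to head on chromosome 12. On mm9, Bzw2 runs from 36818433 to 36883412 on the minus strand and Ankmy2 from 36883711 to 36923878 on the plus strand, which leaves 298 bases between them, and the Ankmy2 window printed above is the stretch before its start, on the side of Bzw2. Ankmy2 had 6.98 and 6.43 FPKM in WT and 37.04 and 33.2 FPKM in cKO 2-cell embryos, a ratio of 5.24 (6.71 ± 0.386 to 35.1 ± 2.68, n = 2). Bzw2 had 20.04 and 20.4 FPKM in WT and 70.4 and 131 FPKM in cKO embryos, a ratio of 4.98 (20.2 ± 0.237 to 101 ± 42.7, n = 2). The groups were well apart in both genes, and the spread was widest for Bzw2 in cKO embryos.

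**Figure D3:**
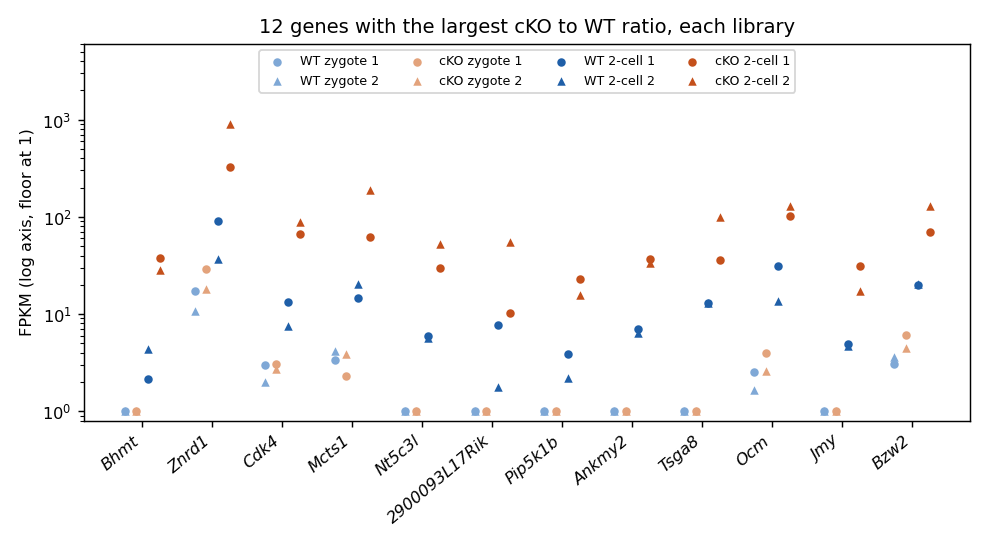
FPKM on a log axis in each of the 8 libraries (circles, replicate 1; triangles, replicate 2; colours, the 4 groups) for the 12 genes with the largest ratio of cKO to WT 2-cell means among those with no overlap between the genotypes. In Bhmt, at the left, the cKO 2-cell libraries at 37.5 and 28.05 FPKM stand far above 2.15 and 4.42 FPKM in WT.

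The members with the highest levels in cKO embryos included cyclophilin, mitochondrial import and 2-cell homeobox genes. FPKM is per length, but the order of levels between genes is uncertain where loci have near-identical copies. Gm11517, a pseudogene on chromosome 11, had 1647 and 1177 FPKM in WT and 3241 and 5851 FPKM in cKO embryos, a ratio of 3.22, and rose 446-fold in WT from 3.17 ± 0.0987 FPKM in zygotes. Gm11517 is among the 9 members with near-identical copies that are counted further on. It matched a coding transcript of another gene at 95.1% identity over 94.8% of its length, so its value is uncertain.
Ppia (cyclophilin A, a prolyl isomerase with many processed copies in the genome) had 828 and 613 FPKM in WT and 1895 and 4117 FPKM in cKO 2-cell embryos, a ratio of 4.17. Znhit3, which helps to assemble small nucleolar ribonucleoproteins, had 652 and 408 FPKM in WT and 1502 and 3263 FPKM in cKO embryos, a ratio of 4.50. Both were already present in zygotes, Ppia at 142 and 95.8 FPKM in WT, and in both the higher cKO library was replicate 2, without which the ratios were 2.63 for Ppia and 2.83 for Znhit3.
Obox6 and Crxos1, homeobox genes of the 2-cell stage, lie 42.9 kb apart on chromosome 7. Obox6 had 2.03 and 1.84 FPKM in WT zygotes, 725 and 707 FPKM in WT 2-cell and 1491 and 3242 FPKM in cKO 2-cell embryos. Crxos1 had 2.19 and 2.04 FPKM in WT zygotes, 788 and 658 FPKM in WT 2-cell and 1455 and 3809.7 FPKM in cKO 2-cell embryos. Their rises in WT, 370.0-fold and 342-fold, were with those of Gm11517 and 2310040G24Rik (277-fold, 404 and 227 FPKM in WT and 514 and 1475 FPKM in cKO 2-cell embryos) the largest values among the 98 genes with the floor in place. For the 35 members at the floor in WT zygotes the rise is a lower bound, so their place in this order is not known. The ratios of cKO to WT were 3.31 for Obox6, 3.64 for Crxos1 and 3.15 for 2310040G24Rik, and without cKO replicate 2 they were 2.08, 2.01 and 1.63, under the threshold of the choice. Because Obox6 belongs to a multigene family and Crxos1 has a relative, Gm9376, of which 89.4% aligns to it at 95.1% identity, their values are uncertain in so far as reads were divided among copies.

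Several of the highest values belonged to loci with near-identical copies. Of 95 members found in the mm9 annotation, 9 had a coding transcript of another gene that matched at least 50% of their length at 90% identity or more. Gm9846, a single-exon gene on chromosome 9 from 114891515 to 114891858, matched Rps27 at 100% identity over 99.1% of its length and had 1285 and 561 FPKM in WT and 952 and 5719.9 FPKM in cKO 2-cell embryos. Its genotypes overlapped, and without cKO replicate 2 its ratio fell from 3.61 to 1.03, while it was 6.20 without cKO replicate 1 and 5.95 without WT replicate 1. Gm15772 matched Rpl26 at 99.2% over 99.8% of its length, and Gm12191 matched Rpl30 at 99.7% over 100% of its length. Gm15772 had 555 and 445 FPKM in WT and 1143 and 2931 FPKM in cKO embryos, and Gm12191 had 596 and 521 FPKM in WT and 1099 and 2451 FPKM in cKO embryos. Their ratios, 4.07 and 3.18, were 2.28 and 1.97 without cKO replicate 2. These 3 loci passed the symbol rule while the ribosomal protein genes they resemble were set aside, and the reads of each locus and of the gene it resembles cannot be told apart here.

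By function, genes of mitochondrial protein import formed the largest named set, apart from 15 predicted or clone-named loci. The lists used here and below were written with earlier results of these data known. They match symbols by pattern, so a gene of like function under another symbol is not counted. Their shares rest on the same 2-cell values that chose the members, so they are a description with no test. Of 40 import and inner membrane genes listed in the table, 16 rose in WT, 10 (25%) were more than 3-fold higher and 2 (5%) more than 3-fold lower in cKO 2-cell embryos, against 2.84% and 13.5% of all genes, and 6 were members. Between cKO and WT the median ratio was 1.53 for the 40 genes and 2.55 for the 16 rising ones, against 0.771 for the whole table. Tomm5, a small subunit of the outer membrane translocase, had 781 and 494 FPKM in WT and 1266 and 4465 FPKM in cKO 2-cell embryos, a ratio of 4.50 after a rise in WT of 184-fold. Timm10, a chaperone of the intermembrane space, had 196 and 148 FPKM in WT and 559 and 899 FPKM in cKO embryos, a ratio of 4.24. In Timm10 the genotypes were far apart, whereas in Tomm5 most of the difference came from replicate 2, with a ratio of 1.99 without it and 7.005 without replicate 1.
Timm17a, part of the inner membrane channel, had 378 and 267 FPKM in WT and 944 and 1206 FPKM in cKO 2-cell embryos, a ratio of 3.33. Dnajc15, a co-chaperone of the import motor, had 123 and 86.6 FPKM in WT and 286 and 489 FPKM in cKO embryos, a ratio of 3.69. The remaining import members, named after their values were seen, are the receptors Tomm20 (58.9 and 44.5 FPKM in WT, 204 and 218 FPKM in cKO) and Tomm70a (13.4 and 9.53 FPKM in WT, 39.3 and 36.8 FPKM in cKO). Tomm20 and Tomm70a had the closest agreement of cKO libraries in the set.

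Respiratory subunits outside the Nduf symbols gave 56 listed genes, 16 rising, 9 (16.1%) more than 3-fold higher in cKO, 1 (1.79%) more than 3-fold lower and 3 members. Uqcrq, a subunit of complex III, had 278 and 146 FPKM in WT and 418 and 1084 FPKM in cKO 2-cell embryos, a ratio of 3.54. Cox7c, a subunit of cytochrome c oxidase, had 138 and 73.4 FPKM in WT and 265 and 650.3 FPKM in cKO embryos, a ratio of 4.33. Atp5j, a subunit of ATP synthase, had 95.3 and 77.7 FPKM in WT and 220.4 and 411 FPKM in cKO embryos, a ratio of 3.65. In all 3 genes both cKO libraries lay above both WT libraries and replicate 2 was the higher. Without it the ratios were 1.97 for Uqcrq, 2.505 for Cox7c and 2.55 for Atp5j.
Among 118 chaperones, heat shock proteins and prolyl isomerases, 15 (12.7%) were more than 3-fold lower and 5 (4.24%) more than 3-fold higher in cKO 2-cell embryos, near the shares of 13.5% and 2.84% over all genes, and 3 (Ppia, Hspa8 and Dnajc15) were members. Hspa8, the constitutive cytosolic HSP70, had 156 and 218 FPKM in WT and 970.3 and 413 FPKM in cKO embryos, a ratio of 3.70. Here replicate 1 was the higher of the cKO libraries, and without it the ratio was 2.21.

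Other sets gave 1 or 2 members each, and their counts are to be read against 2.84% of all genes more than 3-fold higher and 13.5% more than 3-fold lower. Of 50 proteasome subunits 8 (16%) were more than 3-fold higher and 1 (2%) more than 3-fold lower in cKO 2-cell embryos, with a median ratio of 1.87, and Psmb5 and Psmd14 were members. Of 69 translation factors 8 (11.6%) were higher and 4 (5.80%) lower by that fold, with Mcts1 and Eif3a as members, and of 93 ribosome biogenesis genes 7 (7.53%) were higher and 1 (1.08%) lower, with Fcf1 and Rrp15 as members. Of 32 listed genes of the 2-cell stage 24 rose in WT, while 13 (40.6%) were more than 3-fold lower in cKO and 1, Obox6, was more than 3-fold higher, with a median ratio of 0.395. Crxos1, described above as a gene of that stage with a ratio of 3.64, is not on this list. None of 124 developmental transcription factors was more than 3-fold higher in cKO, and 31 (25%) were more than 3-fold lower. No member stood on the lists of secretory genes (301 listed), solute carriers (231 listed) or oocyte-stored maternal genes (60 listed), but with members at 0.681% of all genes a list of such a size holds few or none at that share. Of the 98 genes 41 stood on at least 1 of the 24 lists and 57 on none. Since the lists match symbols, some members of like function are missing from them. Rpf2, a factor of ribosome assembly, is not on the ribosome biogenesis list. H2-Ke2, listed by RefSeq as the prefoldin Pfdn6, is not on the chaperone list. Members of sets with 1 or 2 genes were named after their values were seen.

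The 2 cKO 2-cell libraries did not agree in how far the genes stood above WT. Both cKO libraries lay above both WT libraries for 91 of the 98 members, against 14.0% of all genes, a count that the choice of members pushes up. The ratio to the WT mean had a median of 2.93 in replicate 1 and 4.85 in replicate 2, and replicate 2 was the higher in 73 members and replicate 1 in 25. Over genes above the floor in both libraries, the ratio of replicate 2 to replicate 1 had a median of 0.887, and over the members it was 1.66. The libraries were within 2-fold of each other for 56 members, while replicate 2 was more than 2-fold higher for 36 and replicate 1 for 6. Of the members, 31 were more than 3-fold above the WT mean in both cKO libraries, 51 in replicate 2 alone and 16 in replicate 1 alone. The most uneven, chosen after their values were seen, were Gm9376 (2.40 and 135 FPKM in the cKO 2-cell libraries, against 8.76 and 12.4 FPKM in WT) and Cpn1, a subunit of carboxypeptidase N (30.2 and 1.59 FPKM, against 3.27 and 5.11 FPKM in WT). When every library of a group had to exceed every library of the other by more than 3-fold, 14 members remained, among them Ankmy2, Bzw2, Jmy, Mcts1, Nt5c3l, Ocm and Tomm20.

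**Figure D4:**
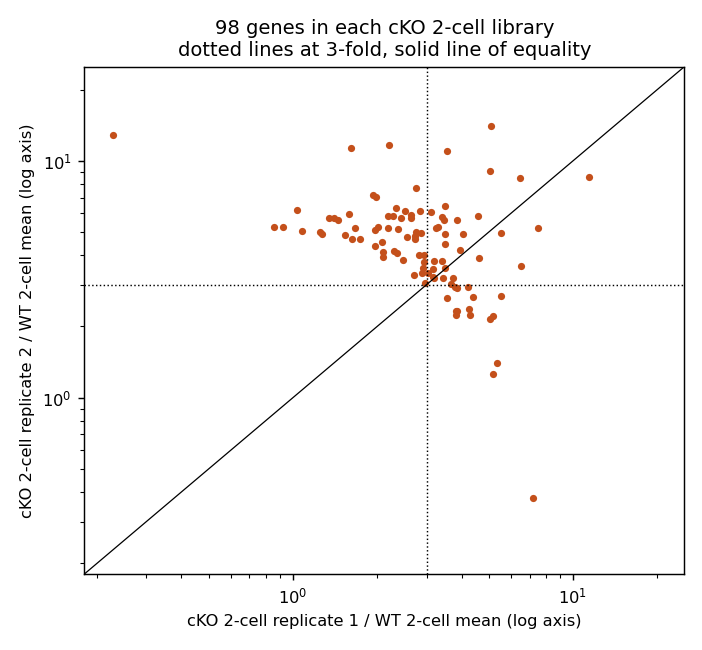
Ratio of cKO 2-cell replicate 1 (x axis) and replicate 2 (y axis) to the WT 2-cell mean for the 98 genes, on log axes, with a solid line of equality and dotted lines at 3-fold. More genes lie above the line (73) than below it (25), and 31 lie past 3-fold in both libraries.

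Without cKO 2-cell replicate 2 the same rule chose 109 genes, of which 47 were among the 98, and without replicate 1 it chose 168, of which 82 were among the 98. The rule was also applied to the libraries numbered 1 alone, which chose 131 genes (35 of them members), and those genes were then measured in the libraries numbered 2, which had no part in choosing them. There 100 of the 131 (76.3%) were higher in cKO than in WT and 30 (22.9%) more than 3-fold higher, with a median ratio of 1.78. Of all genes 27.1% were higher and 5.70% more than 3-fold higher, and of the 3553 rising genes 36.2% and 6.39%. Genes chosen on the libraries numbered 2 numbered 213 (72 of them members). In the libraries numbered 1, 143 of these (67.1%) were higher in cKO and 22 (10.3%) more than 3-fold higher, with a median ratio of 1.36. There 30.9% of all genes were higher and 3.42% more than 3-fold higher, and of the rising genes 38.8% and 3.63%. In both directions the rising genes were chosen on means that include the measured WT libraries, which favours high WT 2-cell values there. Their shares are thus not a like comparison. In both directions the median ratios in the libraries not used were smaller than the 3-fold that chose the genes. All these libraries entered the choice of the 98 genes, so the shares describe the rule applied anew and not the members.

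The size of the difference also moved with the scale. With the deposited values the 98 genes had a median log2 difference between cKO and WT of 1.85, which was 2.39 after median-ratio scaling and 1.58 after scaling to equal sums. For all genes above the floor the same median was -0.31, 0.16 and -0.53 on the same scales, so relative to it the members stood higher on each. After scaling to equal sums 47 of the 98 genes stayed past both thresholds.

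The cKO zygote libraries were the only RNA-seq libraries that the rule did not use, and they were compared with WT zygotes to ask whether the genes were already raised before the 2-cell stage. WT zygote values did enter the choice, which favours genes that are low there. Of the 98 genes, 30 were at the floor in all 4 zygote libraries, and the median ratio of cKO to WT zygotes was 1.02. In 30 members (30.6%) both cKO zygote libraries lay above both WT zygote libraries, against 15.8% of all genes, and in 4 (4.08%) both lay below, against 10.2% of all genes. Without WT zygote replicate 1 the first count was 46 (46.9%), against 32.5% of all genes. No exact permutation test of 2 against 2 libraries can give a two-sided p under 0.33. limma on log2(FPKM + 1) called none of the 98 genes in either direction at an adjusted p under 0.05. Over all 14392 genes it called 3 higher (0.0208%) and 0 lower (0%). With no adjustment, 3 members had a p under 0.05 and were higher and 0 were lower, compared with 324 genes (2.25%) higher and 84 genes (0.584%) lower over the table. Usp16 itself was lower by a log2 difference of -3.21 (SE 0.34), with an adjusted limma p of 0.191. A change of that size thus also missed the threshold in this model of 4 groups with 2 libraries each. The model shared 1 spread over the 4 groups, so the 2-cell libraries that chose the members entered this test. For Usp16 the SD was 58.6 FPKM in cKO 2-cell embryos, against 2.19 and 3.64 FPKM in WT and cKO zygotes. With zygote libraries alone limma called 0 members, and over all 14392 genes only 7 higher and 1 lower. At such low shares 0 of 98 genes says little about the members. At an unadjusted limma p under 0.05, 8 members (8.16%) were then higher and 1 (1.02%) lower, against 4.04% and 1.69% of all genes.
In the limma model of all 4 groups, the 3 members at an unadjusted p under 0.05 were Rpf2, Timm17a and Dnajc15. Rpf2, a factor of large ribosomal subunit assembly, had 8.36 and 9.69 FPKM in WT and 18.4 and 20.7 FPKM in cKO zygotes, a log2 difference of 1.04 (SE 0.24, limma adjusted p = 0.884). Timm17a had 103 and 97.9 FPKM in WT and 188 and 151 FPKM in cKO zygotes, with a log2 difference of 0.74. Dnajc15 had 14.99 and 16.5 FPKM in WT and 42.3 and 23.8 FPKM in cKO zygotes, with a log2 difference of 0.97. In all 3 the cKO libraries lay above the WT libraries.

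Members had shorter transcripts than rising genes at the median, which is described with no test. Their longest annotated transcript had a median of 1635 bases, against 2396 over all rising genes and 2807 over all genes, for 95 of 98 members with a value. Medians of coding length were 752 bases in members, 1134 in rising genes and 1299 in all genes, and medians of exon number were 5, 6 and 7. GC content of the transcript had a median of 48.4% in members, 51.8% in rising genes and 50.3% in all genes. When the rising genes were divided by transcript length into 4 classes of like size, the members made up 4.91%, 3.03%, 1.99% and 1.17% of the classes from shortest to longest. The share more than 3-fold lower in cKO also changed over these classes, at 20.2%, 20.3%, 15.8% and 9.59%. Both shares were lowest in the class of longest transcripts. The 2 cKO libraries differed in how the median ratio of the rising genes to the WT 2-cell mean changed over the classes. From shortest to longest it was 0.672, 0.700, 0.825 and 0.914 in replicate 1. In replicate 2 it was 0.823, 0.641, 0.675 and 0.648. Whether the shorter transcripts of the members follow 1 library was not tested.

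**Figure D5:**
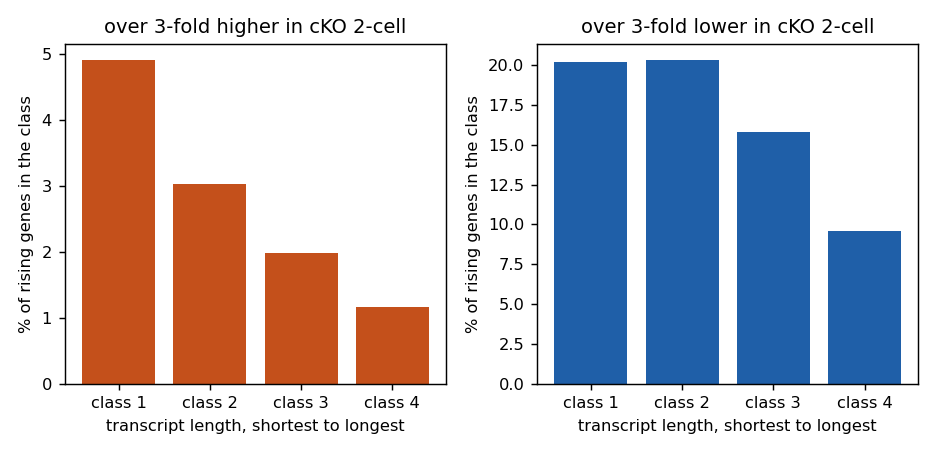
Percent of rising genes in each of 4 classes of transcript length (bars, each class with 855 to 857 genes) that were more than 3-fold higher (left) or lower (right) in cKO than in WT 2-cell embryos, with separate axes from 0. The share falls from 4.91% in the shortest to 1.17% in the longest class on the left and from 20.2% to 9.59% on the right.

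Promoters of 74 members were found in RefSeq and compared by the motifs above. A GC box stood in 43.2% of them, against 56.6% of rising and 54.2% of all listed genes, and a TATA box in 13.5%, against 7.53% and 7.85%. An E-box stood in 12.2% (rising genes 8.60%), a CCAAT box in 35.1% (rising genes 39.7%), an ETS match in 14.9% (rising genes 13.7%) and an NRF1 match in 10.8% (rising genes 10.99%). Over all 27025 promoters of the table, in which genes not listed here are included, the GC box stood in 32.9%, the TATA box in 12.98% and the E-box in 6.04%. The median density of CpG was 4.8 per 100 bases in members, 6.0 in rising genes and 5.6 in all listed genes. With 74 promoters these shares rest on few genes, 10 for the TATA box and 9 for the E-box, and they are given as a description of letters in these windows.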

How the data were processed

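RNA-seq was analysed in 8 libraries of 10 embryos, in 4 groups of 2 taken from the sample titles. After trimming, the authors aligned reads to mm9 with TopHat2 2.1.1 and derived FPKM with Cufflinks 2.2.1, per the submitters' processing notes and the methods; values under 1 were set to 1 in the deposited FPKM table. The gene annotation and any further normalization are not given in the sources used here. No counts are held, so depth is unknown and precision rests on 2 libraries. 7 ChIP-seq samples were not analysed here.

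From these values, group means gave the fold rule (threshold 3). limma 3.58.1 in R 4.3.3 was fitted over all 14392 genes on log2(FPKM + 1), with 4 groups in 1 model, a trend and Benjamini-Hochberg adjustment at 0.05. A fold change on this scale understates that of low genes. Members and gene lists were chosen with earlier results of these data known. Named genes were the 12 largest cKO to WT ratios without overlap, the 8 highest cKO levels (1 gene is not reported here), the 4 largest rises, up to 4 members of each list with at least 3, and those nearest the thresholds. Coordinates of genes are GENCODE M1 on mm9 (95 members found). Promoters are RefSeq GRCm38.p6, 250 bases before the start (74 members, 96 matched by symbol). Copies were searched with BLAST 2.17.0. Python 3.11.15 and pandas 2.3.3 were used. The fold rule, the motif search and limma were tested on simulated data. Alternatives covered threshold, pseudocount, mean, scaling, filter, pairing and leaving out each library.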

Additional observations from a re-analysis of the deposited data

Results flagged for a closer look

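For 4 members both cKO zygote libraries lay below both WT zygote libraries, while at the 2-cell stage both cKO libraries lay above both WT libraries. They were Psmb5, a catalytic subunit of the proteasome (cKO to WT ratio of zygote means 0.607), Znhit3 (0.810), Mat2a, which makes S-adenosylmethionine (0.831), and Rrp15, a ribosome biogenesis factor (0.893). The direction at the 2-cell stage was fixed by the choice of the genes, and the difference between the stages was not tested. In the limma model of all 4 groups, none of these 4 members differed between zygotes at an unadjusted p under 0.05. The lowest limma p was 0.122 for Psmb5, whose WT zygote libraries stood at 12.8 and 6.40 FPKM. Its cKO zygote libraries stood at 5.47 and 6.21 FPKM. Groups of 2 libraries are too small for a test of single outlying samples.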

How the results depend on the processing

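The number of genes past both thresholds was 98 and depended on the fold, at 520 for a 2-fold and 32 for a 4-fold threshold, and on the scale, at 240 after median-ratio scaling (77 shared with the 98) and 47 after scaling to equal sums (all 47 shared). It was 14 when every library had to exceed the others, 73 with a pseudocount of 1, 81 with geometric means (76 shared) and 98 with a WT 2-cell mean of at least 3. Leaving out 1 library gave 99 to 168 genes, the most without cKO 2-cell replicate 1. Libraries numbered 1 alone gave 131 genes and those numbered 2 alone gave 213, alternatives chosen after seeing the data. Deviations of same-numbered libraries from their group means correlated at 0.50 between WT and cKO zygotes, 0.11 between WT zygotes and WT 2-cell embryos and -0.24 between WT and cKO 2-cell embryos; with 2 libraries a group and no shared litter, batch or day in the labels, the number was not taken as a pairing, and a batch shared by zygote libraries was not tested. With the replicate block, as same-numbered ratios, 122 genes passed (95 shared), and with the 2-cell numbers crossed, added after seeing the data, 99 passed. The members' median log2 ratio of 1.85 moved to 2.39 after median-ratio scaling, and to 1.55 to 2.28 with 1 library left out. limma called 0 members in zygotes under each alternative that kept every zygote library, the replicate block included. Over all genes tested, these alternatives called from 1 (replicate block) to 9 (median-ratio scaling) higher and from 0 to 3 lower. With zygotes alone 8 members (8.16%) were higher and 1 (1.02%) lower at an unadjusted limma p under 0.05, against 4.04% and 1.69% of all genes. Their median log2 difference there, 0.014, ran from 0 to 0.081 with 1 library left out. The count of members with both cKO zygote libraries above both WT ones, 30, ran from 32 to 46 with 1 library left out (32.7% to 46.9%, against 22.7% to 32.5% of all genes), the highest without WT zygote replicate 1, and was 28 and 27 after the scalings. All 30 named members kept a ratio above 1 in every setting, and 19 fell to 3 or under with some library left out. The causes of these changes were not tested. Unknown depth and 2 libraries per group limit all of these values.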

Other observations

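Some members lay near each other in the genome. Among genes of the mm9 annotation, 6 pairs of members were less than 250 kb apart, of which Bzw2 and Ankmy2 (0.298 kb) and Obox6 and Crxos1 (42.9 kb) were the closest. The others were Gm773 and 1600025M17Rik (105 kb), Jmy and Bhmt (117 kb), Tomm5 and 2900093L17Rik (127 kb), and Tomm70a and 2610528E23Rik (145 kb). Whether this is more than gene density gives was not tested.

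By annotation, 90 of the 95 members found were protein-coding, 3 were pseudogenes and 2 were processed transcripts, that is 3.16% pseudogenes against 0.648% of all listed genes. A single exon was annotated for 7 members (7.37%), against 4.35% of rising genes and 3.43% of all genes. The pseudogenes Gm11517, Gm12191 and Gm15772 and the single-exon genes Gm5635, Gm9376 and Gm9846 are among the members with near-identical copies. Reads of these loci and of their copies cannot be told apart, so both shares are uncertain as traits of the members. Chromosome 11 carried 11 members and chromosome 7 carried 10, or 11.6% and 10.5% of those placed, against 8.28% and 7.97% of all listed genes. Both were named for their high counts, after those were seen. Other chromosomes also departed from their share, such as chromosome 16 (6.32% against 3.17%) upward and chromosome 2 (3.16% against 7.94%) downward, and none of this was tested.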
